A study of Mus musculus with 10 samples.

Results

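The cytoplasmic ribosomal protein genes were examined in bulk RNA-seq of HSCs, the hematopoietic stem cells sorted as LSK CD48- CD150+ bone marrow cells. Members were the genes whose symbol has the form *Rps* or *Rpl* followed by a number, with or without a final letter a, x, y or l, or the names *Rplp0*, *Rplp1* and *Rplp2*. The rule found 82 of the 26146 genes in the deposited table, 31 of them proteins of the small (40S) subunit, 48 of the large (60S) subunit and 3 of the P-stalk. Ribosomal proteins with other symbols, such as *Rpsa* and *Fau*, and the copies *Rpl7l1*, *Rpl22l1* and *Rpl36al* fell outside the rule and are given separately. The 5 *Cited2* CTL mice, labelled wildtype, carried *Cited2* fl/fl alleles without Cre, and the 5 *Cited2* CKO mice carried *Cited2* fl/fl with *Vav-iCre*, which deletes *Cited2* in the whole hematopoietic system and not in HSCs alone. All mice were on the C57BL/6J background and 8 to 12 weeks old.

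Ribosomal proteins assemble with ribosomal RNA in the nucleolus into the 40S subunit, which reads the mRNA, and the 60S subunit, which joins the amino acids. Because every ribosome needs about equal amounts of each protein, their genes are among the most evenly and highly expressed in growing cells. Their mRNAs typically start with a C followed by a run of C and T, the terminal oligopyrimidine (TOP) element, through which mTORC1 and the RNA-binding protein Larp1 set their translation. HSCs are known for a low rate of protein synthesis, and loss of 1 copy of certain ribosomal protein genes causes the inherited marrow failure Diamond-Blackfan anemia.

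The start of the gene was available from RefSeq (GRCm38.p6) for 60 of the 82 members. In a window of 30 bases around the RefSeq start (15 on either side, on the strand of the RNA), the longest unbroken run of C and T had a median of 7 bases and lay between 2 and 21 bases. Where a gene had several RefSeq starts, the start with the longest run was used, for members and all genes alike. A run could lie anywhere in the window, so it is not a count of TOP elements. A run of at least 8 bases was present in 27 of the 60 members (45%), against 3760 of the 27025 genes with such a window (13.9%). The windows below are examples with long runs (10 or 11 bases) and short runs (3 or 4 bases) among the members described, shown since the TOP element is what these mRNAs are known to share, with the longest run in capitals and the position and strand in parentheses.
Rpl4 (chr9:64173372-64173401, +): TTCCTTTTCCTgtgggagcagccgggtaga
Rps18 (chr17:33955651-33955680, -): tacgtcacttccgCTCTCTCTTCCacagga
Rpl31 (chr1:39367836-39367865, +): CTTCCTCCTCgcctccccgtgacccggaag
Rpl38 (chr11:114668565-114668594, +): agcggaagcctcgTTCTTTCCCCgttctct
Rps15a (chr7:118116133-118116162, -): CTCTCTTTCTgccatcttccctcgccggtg
Rpl32l (chr10:20208424-20208453, +): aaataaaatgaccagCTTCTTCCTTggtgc
Rpl5 (chr5:107900513-107900542, +): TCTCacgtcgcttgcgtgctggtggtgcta
Rpl9 (chr5:65391417-65391446, -): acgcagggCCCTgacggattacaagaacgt
Rps4x (chrX:102189377-102189406, -): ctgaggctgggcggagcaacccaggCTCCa
Rpl10 (chrX:74270801-74270830, +): gttgttacagtggaagataggccgCCTata
The run is 11 bases in *Rpl4* and *Rps18*, 10 in *Rpl31*, *Rpl38*, *Rps15a* and *Rpl32l*, 4 in *Rpl5*, *Rpl9* and *Rps4x*, and 3 in *Rpl10*. Of these genes, *Rpl32l* is typed as a processed pseudogene in GENCODE and is not among the mRNAs known for a TOP element. RefSeq starts can lie some bases away from the start used in HSCs, so a short run says only that these letters are not in this window. A long run likewise does not show a TOP element. In *Rpl4*, *Rpl31* and *Rps15a* it lies wholly before the RefSeq start, outside the mRNA as annotated there.

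Libraries held 3058690 to 4548795 counts. The targeted gene *Cited2* had 303, 677, 551, 909 and 732 counts in *Cited2* CTL libraries 1 to 5 and 16, 17, 17 and 36 counts in *Cited2* CKO libraries 1, 2, 4 and 5. The library labelled CKO 3 had 508 counts of *Cited2*, which goes against its label, so the main results below are also given without it. The 12 HSC markers were all detected, with summed levels of 2899 to 3293 CPM (counts relative to the library total, scaled by TMM, edgeR's trimmed mean of M-values) in *Cited2* CTL and 2609 to 2915 CPM in *Cited2* CKO libraries. The 8 neutrophil markers summed to between 50.8 and 610 CPM in *Cited2* CTL and between 58.1 and 345 CPM in *Cited2* CKO libraries, and the 7 erythroid markers in the table to 18.8 to 80.7 and 22.2 to 36.1 CPM. No marker on these lists was at 0 in every library, and the part of other cells in the values below was not tested.

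Together the 82 genes took about 1% of the counts in both genotypes. Their summed share of the library was 1.03, 0.931, 1.07, 0.859 and 0.907% in *Cited2* CTL libraries 1 to 5 and 0.961, 1.03, 0.892, 0.908 and 0.952% in *Cited2* CKO libraries 1 to 5. The ranges overlapped almost completely, with the highest and the lowest library both in *Cited2* CTL. The means were 0.961 ± 0.0894% for *Cited2* CTL and 0.949 ± 0.0542% for *Cited2* CKO (± SD of 5 libraries, here and below), a difference of -0.0124 percentage points that is smaller than either SD. Counting error was small beside this spread, since the 95% Wilson interval of the lowest library ran from 0.850 to 0.868% and that of the highest from 1.06 to 1.08%. With the library labelled CKO 3 left out the difference was 0.00176 percentage points. In bulk cells a lower share of these transcripts and fewer cells that express them cannot be told apart. The share is one of deposited counts. Counts of most members rose less than in proportion to the library total, as described below. The share of these genes in the mRNA, and differences in it, may be understated, which was not tested.

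**Figure D1:**
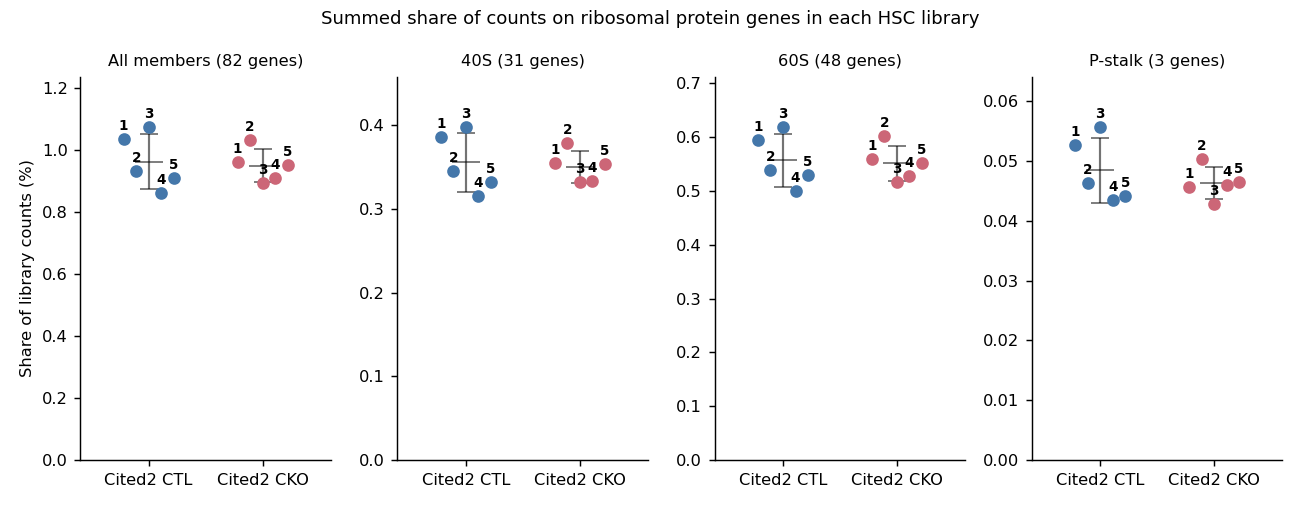
Share of the library's counts (%, y axis from 0) on all 82 ribosomal protein genes and on the 40S, 60S and P-stalk genes, for 5 *Cited2* CTL (blue) and 5 *Cited2* CKO (red) libraries, numbered by replicate. Horizontal bars are means and whiskers SD, and in each panel the *Cited2* CKO libraries lie within or close to the range of the *Cited2* CTL libraries.

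The balance between the subunits was closer still than the total. The 40S genes took 0.356 ± 0.0351% of the counts of *Cited2* CTL and 0.351 ± 0.0191% of those of *Cited2* CKO, and the 60S genes 0.557 ± 0.0489% and 0.552 ± 0.0328%. The ratio of 60S to 40S counts was 1.54, 1.56, 1.55, 1.58 and 1.59 in *Cited2* CTL libraries 1 to 5 and 1.57, 1.59, 1.56, 1.59 and 1.56 in *Cited2* CKO libraries 1 to 5. While the total differed between libraries by up to 0.213 percentage points, this ratio stayed between 1.54 and 1.59 in the 10 libraries. The genes *Rplp0*, *Rplp1* and *Rplp2* of the P-stalk, the arm of the 60S subunit that recruits elongation factors, took 0.0485 ± 0.00546% and 0.0463 ± 0.00267%.

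Gene by gene, no ribosomal protein gene was called different between *Cited2* CKO and *Cited2* CTL HSCs. Of the 82 members, 80 passed the filter on low counts and were tested with edgeR's quasi-likelihood test in the fit of all 14165 tested genes, and 0 were called higher and 0 lower at an adjusted p under 0.05 and a fold change above 20%. In the same fit 17 genes (0.12%) were called higher and 15 (0.106%) lower. At an unadjusted p under 0.05 there were 0 of 80 members, against 1824 of all tested genes (12.9%). The CPM ranges of the genotypes were apart in 0 of 80 members, against 471 of all tested genes (3.33%). DESeq2's Wald test, the test of the study, called 0 members and 322 genes in all (2.27%), and again 0 members had an unadjusted p under 0.05.

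The fitted differences were small as well as uncalled. The members' log2 fold changes (*Cited2* CKO over *Cited2* CTL) had a median of -0.01 and quartiles of -0.06 and 0.06, with 37 above and 43 below 0. Over all tested genes the median was 0.01 and the quartiles -0.17 and 0.18. Those genes include many with fewer counts per base of gene length, where fitted differences were larger. At 0.4 to 0.6 counts per base the median absolute log2 fold change was 0.07 in members and 0.07 in other genes. Members had smaller medians at 0.2 to 0.4 (0.03 against 0.10), 0.6 to 0.8 (0.05 against 0.07) and 0.8 to 1 (0.02 against 0.04). Above 1 their median was larger (0.05 against 0.04). Small differences were thus also seen in other genes of such levels, and whether those of the members are smaller was not tested. For the 77 members with a mean of at least 60 counts the log2 fold change lay between -0.10 and 0.24, and the 95% intervals reached a median of 0.20 to either side. All 77 intervals included 0, and 47 of them lay wholly within the 20% fold change threshold (0.26 on the log2 scale), while for the other 30 a change above 20% in at least 1 direction lies within the interval. Without the library labelled CKO 3, 0 members were called and their median was 0.02. Over 22 alternatives the median moved between -0.05 and 0.04, with either sign, so that no direction can be given for the group.

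**Figure D2:**
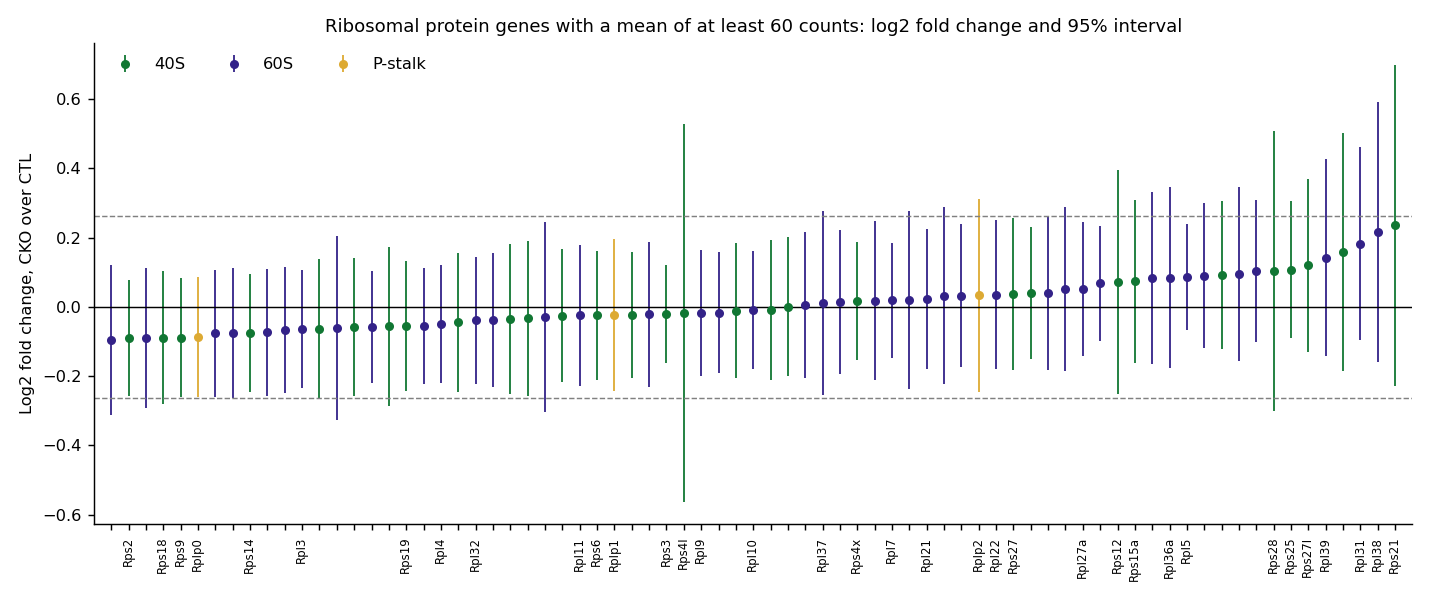
Log2 fold change (*Cited2* CKO over *Cited2* CTL, y axis) of 75 ribosomal protein genes with a mean of at least 60 counts, with 95% intervals from edgeR, ordered by value and coloured by subunit. The solid line marks 0 and the dashed lines the 20% threshold, and every interval crosses 0.

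The members nearest to a difference are described for their values and not as changes. Among those with a higher fitted level in *Cited2* CKO HSCs, *Rpl31*, a 60S protein near the exit of the peptide tunnel (chromosome 1, 39367842 to 39371911 in GRCm38), had 90.6, 85.4, 101, 77.8 and 90.1 CPM in *Cited2* CTL libraries 1 to 5 and 103, 120.5, 95.5, 70.8 and 114 CPM in *Cited2* CKO libraries 1 to 5. All but 1 of the *Cited2* CKO libraries lay above the *Cited2* CTL mean, while CKO 4 held the lowest value of the 10. Its log2 fold change of 0.18 had a standard error of 0.13, an unadjusted p of 0.183 and an adjusted p of 0.604 by edgeR. As elsewhere, p sets the difference between genotypes against the spread between these libraries only. Without the library labelled CKO 4 it was 0.28 with an unadjusted p of 0.0167 and an adjusted p of 0.235 in the same edgeR test, and without CKO 2 it was 0.11 with an unadjusted p of 0.428. Of the other libraries, leaving out each gave 0.13 to 0.23, and a loess offset for GC and length gave 0.10. *Rpl38*, a small 60S protein needed for the translation of homeobox mRNAs in the embryo (chromosome 11, 114668524 to 114672331), had 31.1, 31.6, 37.3, 23.4 and 34.1 CPM in *Cited2* CTL and 36.4, 48.5, 36.4, 28.2 and 33.4 CPM in *Cited2* CKO libraries, a log2 fold change of 0.22 (standard error 0.18). The 2 groups of *Rpl38* values overlapped, with the highest library, CKO 2, standing above the others, and the log2 fold change was 0.09 without CKO 2 and 0.12 without CTL 4. The GC and length offset gave 0.36.

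*Rpl5*, which together with *Rpl11* and a small ribosomal RNA binds Mdm2 when ribosome assembly fails (chromosome 5, 107900502 to 107909005), had 249, 225, 259, 208 and 219 CPM in *Cited2* CTL libraries 1 to 5 and 251.95, 259.8, 242, 241 and 235 CPM in *Cited2* CKO libraries. The *Cited2* CKO values spanned a narrower band than those of *Cited2* CTL, and the log2 fold change was 0.09 (standard error 0.07). Correcting for GC content and length by a loess offset turned its sign (-0.04), and without CTL 4 it was 0.05. *Rps25*, a protein of the head of the 40S subunit (chromosome 9, 44407139 to 44410427), had 97.0, 90.2, 97.3, 77.8 and 84.0 CPM in *Cited2* CTL and 97.2, 106, 92.9, 90.3 and 93.3 CPM in *Cited2* CKO libraries, a log2 fold change of 0.11 (standard error 0.09) that was 0.06 without CTL 4 and 0.07 without CKO 2. The adjusted p of these 4 members was at least 0.604 in edgeR's test.

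On the other side, *Rps2*, *Rps9*, *Rplp0* and *Rps18* were among the members with the smallest p and a lower fitted level. Their log2 fold changes were all -0.09, with standard errors of 0.08 to 0.09 and adjusted p of 0.673 to 0.725 in edgeR's test. Without CTL 1 they lay between -0.06 and -0.04, and with the GC and length offset *Rps2* turned to 0.03. *Rplp0*, the base on which the P-stalk is built (chromosome 5, 115559467 to 115563727), had 358, 300.1, 344, 285 and 277 CPM in *Cited2* CTL and 281, 311, 277, 316 and 286 CPM in *Cited2* CKO libraries. *Rps2*, a 40S protein at the mRNA entry (chromosome 17, 24718116 to 24721929), had 166, 149, 155, 142 and 137 CPM in *Cited2* CTL and 131, 149, 133, 151 and 138 CPM in *Cited2* CKO libraries. In both genes libraries 1 and 3 were the 2 highest of *Cited2* CTL, and these are the 2 with the largest summed share of ribosomal protein counts in that group, and the remaining values of the genotypes intermingled.

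The 18 members listed from general knowledge for Diamond-Blackfan anemia, a list that need not be complete, were no exception. Of these, 0 were called in either direction, 10 had a fitted level above and 8 below that of *Cited2* CTL, and their median log2 fold change was 0.02. *Rps19*, the gene most often mutated in the disease, averaged 118 ± 12.5 CPM over *Cited2* CTL and 114 ± 5.97 CPM over *Cited2* CKO libraries, with a 95% interval of the log2 fold change from -0.24 to 0.13. *Rps14*, whose loss underlies the anemia of a myelodysplastic syndrome, averaged 151 and 143 CPM with an interval from -0.24 to 0.10. *Rpl11* averaged 103 and 100.6 CPM with an interval from -0.23 to 0.18.

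Grouping the members by their C and T run or subunit gave little separation, while the groups by length lay further apart. The 27 tested members with a C and T run of at least 8 bases had a median log2 fold change of -0.02 and the 31 with a shorter run 0.00. The 31 tested 40S genes had a median of -0.02 and the 46 tested 60S genes 0.01. The 4 genes on the X chromosome, *Rps4x*, *Rpl10*, *Rpl36a* and *Rpl39*, had log2 fold changes between -0.01 and 0.14. The 15 members with a deposited length under 500 bases had a median of 0.08, with 10 above and 5 below 0, and the 65 longer ones -0.02, with 27 above and 38 below.

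Between genes, levels can be compared only per base, and the measure used here is counts per base, the count of a gene divided by its deposited length. Counts per base rose less than in proportion to the library total at high values, as described below. Ratios between the highest members may be understated, which was not tested. The highest was *Rpl4*, a 60S protein whose loop lines the peptide tunnel, with 1.05, 1.199, 1.12, 1.201 and 1.26 counts per base in *Cited2* CTL libraries 1 to 5 and 1.199, 1.37, 1.16, 1.07 and 1.25 in *Cited2* CKO libraries 1 to 5. Among the members next in order were *Rpl32* at 1.11 ± 0.0777, *Rps14* at 0.953 ± 0.0893, *Rps9* at 0.913 ± 0.0645, *Rps4x* at 0.907 ± 0.0965, *Rpl9* at 0.889 ± 0.0755 and *Rplp0* at 0.862 ± 0.0511 counts per base in *Cited2* CTL. Scaled to the library total, the ranges over the *Cited2* CTL libraries overlapped between neighbours for 75 of the 76 neighbouring pairs among the 77 well counted members. The highest member stood at 2.05 times the median member, between 1.94 and 2.17 times in single *Cited2* CTL libraries, and at 1.91 times in *Cited2* CKO. The order of the 82 genes was nearly the same in both genotypes, with a Spearman correlation of the means of 0.990, a description over genes measured in the same libraries.

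**Figure D3:**
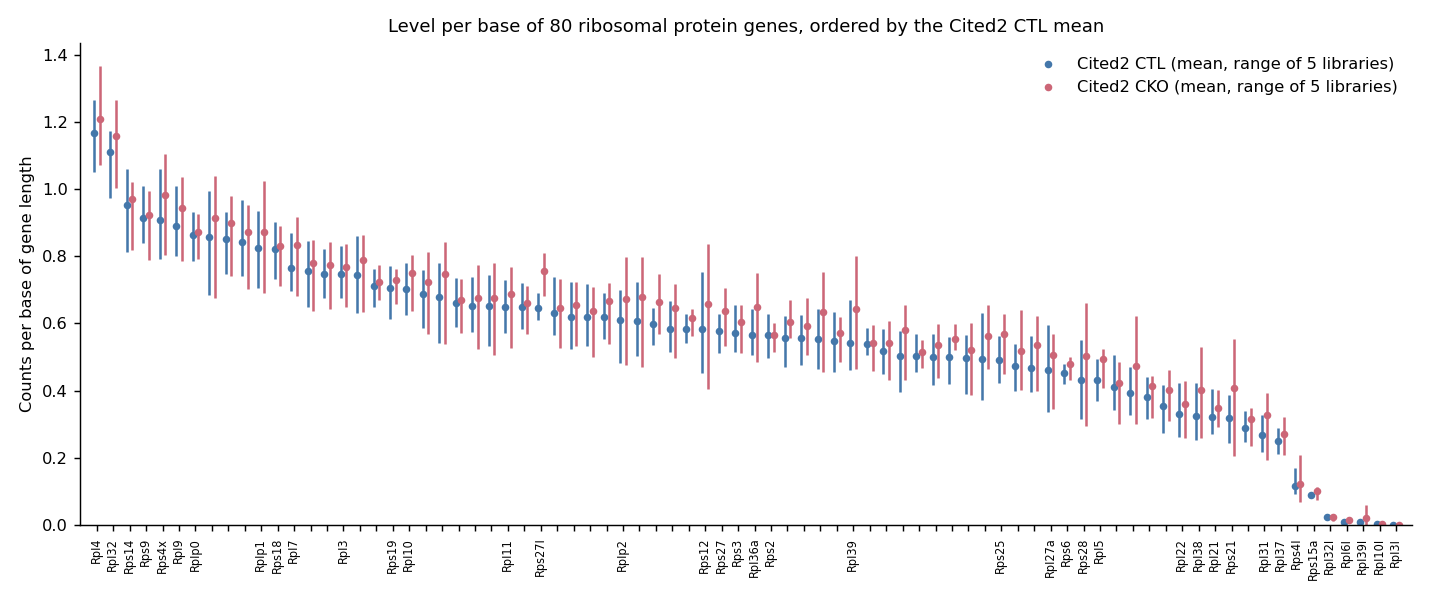
Counts per base of deposited gene length (y axis from 0) of 80 ribosomal protein genes, ordered by the *Cited2* CTL mean. Points are means and lines the range of 5 libraries for *Cited2* CTL (blue) and *Cited2* CKO (red), with *Rpl4* highest, a long shallow slope from 1.11 to 0.25 counts per base down to *Rpl37*, and 7 genes below 0.2.

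Below this shallow slope stood 7 members of several kinds. *Rps15a*, a 40S protein, had 0.0890 ± 0.00621 counts per base in *Cited2* CTL at a deposited length of 5136 bases, the longest of all members against a median of 706.5 bases, while its level of 122 CPM is ordinary for the family. *Rps4l* (0.116 ± 0.0322), *Rpl32l* (0.0247 ± 0.00703) and *Rpl6l* (0.00903 ± 0.00361 counts per base in *Cited2* CTL) are typed as processed pseudogenes in GENCODE. *Rps4l* varied more between libraries than any other well counted member, from 16.1 CPM in the library labelled CKO 2 to 44.9 CPM in CKO 5, with a log2 fold change of -0.02 and a 95% interval from -0.56 to 0.53. *Rpl39l*, *Rpl10l* and *Rpl3l*, copies known from the germ line and, for *Rpl3l*, from muscle, made up the rest. *Rpl3l* had 0 to 4 counts in *Cited2* CTL and 0 to 8 in *Cited2* CKO libraries, and *Rpl10l* 0 to 4 and 0 to 7, and these 2 did not pass the filter on low counts.

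*Rpl39l* (chromosome 16, 10170226 to 10174911) had the largest fitted difference of all members and the smallest p, on few counts. It had 5, 6, 3, 10 and 12 counts in *Cited2* CTL libraries 1 to 5 and 21, 8, 49, 9 and 0 counts in *Cited2* CKO libraries 1 to 5. The 2 highest values and the single 0 were all in *Cited2* CKO, and the highest, 49 counts, was in the library labelled CKO 3, which retained *Cited2*. Its log2 fold change of 1.19 had a standard error of 0.83, an unadjusted p of 0.174 and an adjusted p of 0.598 by edgeR. Without the library labelled CKO 3 the log2 fold change was 0.37, and without CKO 5, which had the 0, it was 1.504 (unadjusted p = 0.0318 and adjusted p = 0.327 in edgeR's test). Limma-voom gave 0.09 with all libraries.

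The highest member of each library stood at 1.05 to 1.37 counts per base. Among genes of at least 200 bases, the highest of each library lay between 1.45 and 1.72 counts per base. Whether reads at the same position were counted once or each time was not given in the sources used here. The growth of a gene's counts with the library total was measured as the slope of log2 count on log2 total over the 10 libraries, where 1 means in proportion. For the 77 members with at least 10 counts in every library the median slope was 0.70, with 66 below 1, while the 11399 genes of that depth had a median of 1.00. These slopes rest on 10 libraries with totals of 3058690 to 4548795 counts and are given without an error. Their cause was not tested.

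Above 0.02 counts per base the median slope of other genes was lower in each higher class. It was 1.08 up to 0.02 and 1.21 at 0.02 to 0.05 counts per base, then 1.11 at 0.05 to 0.1, 1.00 at 0.1 to 0.2, 0.91 at 0.2 to 0.4, 0.77 at 0.4 to 0.6, 0.68 at 0.6 to 0.8, 0.53 at 0.8 to 1 and 0.49 above 1. In the last 4 classes the members' medians were 0.75 (25 genes), 0.63 (27 genes), 0.61 (11 genes) and 0.50 (3 genes), close to those of the other genes, while at 0.2 to 0.4 it was 1.02 (9 genes) and the single members at 0.05 to 0.1 and 0.1 to 0.2, *Rps15a* and *Rps4l*, had 0.74 and 0.78. *Rpl27a*, whose counts per base went from 0.335 in CTL 1 to 0.594 in CTL 5, had the highest slope of the members at 1.56. The median absolute log2 fold change between genotypes was 0.03 in members and 0.10 in the other genes at 0.2 to 0.4 counts per base, and 0.07 in both at 0.4 to 0.6. It was 0.05 and 0.07 at 0.6 to 0.8, 0.02 and 0.04 at 0.8 to 1, and 0.05 and 0.04 above 1. Of the other genes, 62 of 458 (13.5%) at 0.4 to 0.6 and 10 of 137 (7.30%) at 0.6 to 0.8 counts per base had an unadjusted p under 0.05 in edgeR's test. With an offset for counts per base, added after the data were seen, 0 members were called and their median log2 fold change was -0.02.

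**Figure D4:**
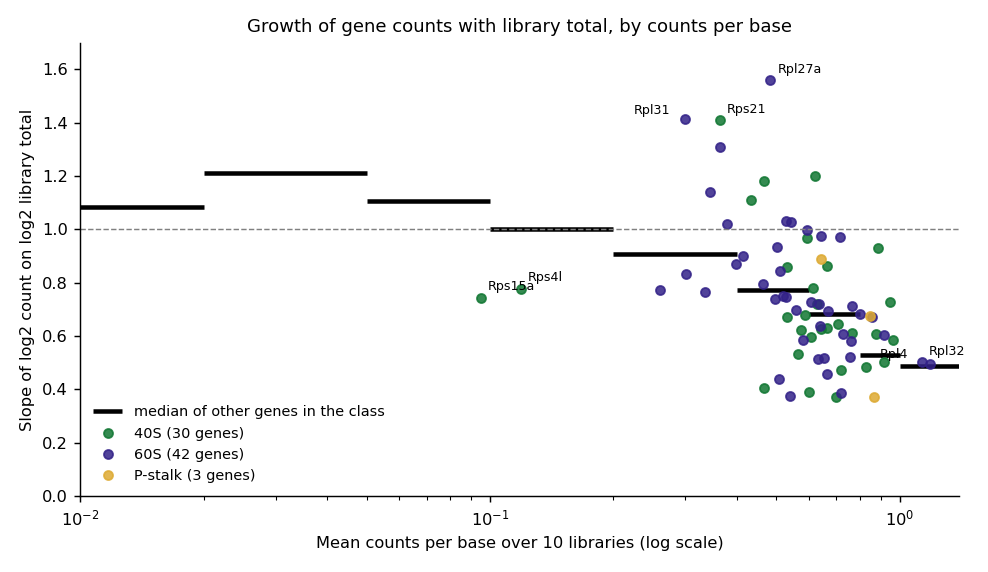
Slope of log2 count on log2 library total over 10 libraries (y axis) against the mean counts per base (x axis, log scale) of 75 ribosomal protein genes, coloured by subunit. Black bars are the medians of the other genes in classes of counts per base, the dashed line marks a slope of 1, and above 0.2 counts per base the medians lie below 1.

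The share of ribosomal protein counts varied between libraries of 1 genotype far more than between genotypes, and the members moved together. In the library CTL 3, 74 of the 77 well counted members were above their own median over the 10 libraries, in CTL 1 66, and in the library labelled CKO 2 76. In CTL 4 it was 0 of the 77, and in CTL 5 and the library labelled CKO 3 it was 9. CTL 1 and CTL 3, with the highest shares in *Cited2* CTL, had the smallest totals of that genotype (3058690 and 3381357 counts), and CTL 4 and CTL 5, with the lowest shares, the largest (4128458 and 4548795). The *Cited2* CKO libraries showed no such order, since the smallest, CKO 4 with 3500215 counts, had a share of 0.908%, below the 1.03% of CKO 2 with 4148213 counts. The spread between libraries was larger in *Cited2* CTL for 57 of the 77 members, with a median SD of log2 CPM of 0.15 against 0.11 in *Cited2* CKO, and this difference in spread was not tested.

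A few short members varied more widely than the rest and in step with each other. *Rps28*, a 40S protein with the shortest deposited length of the members (328 bases), had 39.5, 40.2, 43.5, 25.3 and 39.6 CPM in *Cited2* CTL and 42.3, 53.7, 35.2, 28.5 and 41.9 CPM in *Cited2* CKO libraries. *Rps21*, another short 40S protein of 391 bases, had 32.1, 32.1, 44.4, 24.4 and 33.0 CPM and 43.0, 53.4, 31.9, 23.5 and 42.9 CPM in the same libraries. *Rps12*, of 518 bases, had 78.6, 73.5, 98.8, 62.4 and 85.3 CPM and 89.1, 107, 75.9, 61.7 and 84.1 CPM. In all 3 genes the libraries numbered 4 of both genotypes were the lowest and CKO 2 was the highest, as was so for *Rpl38*. Counts on the 15 members under 500 bases divided by counts on the longer ones came to 0.103, 0.106, 0.112, 0.0994 and 0.108 in *Cited2* CTL and 0.111, 0.119, 0.108, 0.102 and 0.112 in *Cited2* CKO libraries. The group means of 0.106 ± 0.00490 and 0.110 ± 0.00642 overlapped within their spread.

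**Figure D5:**
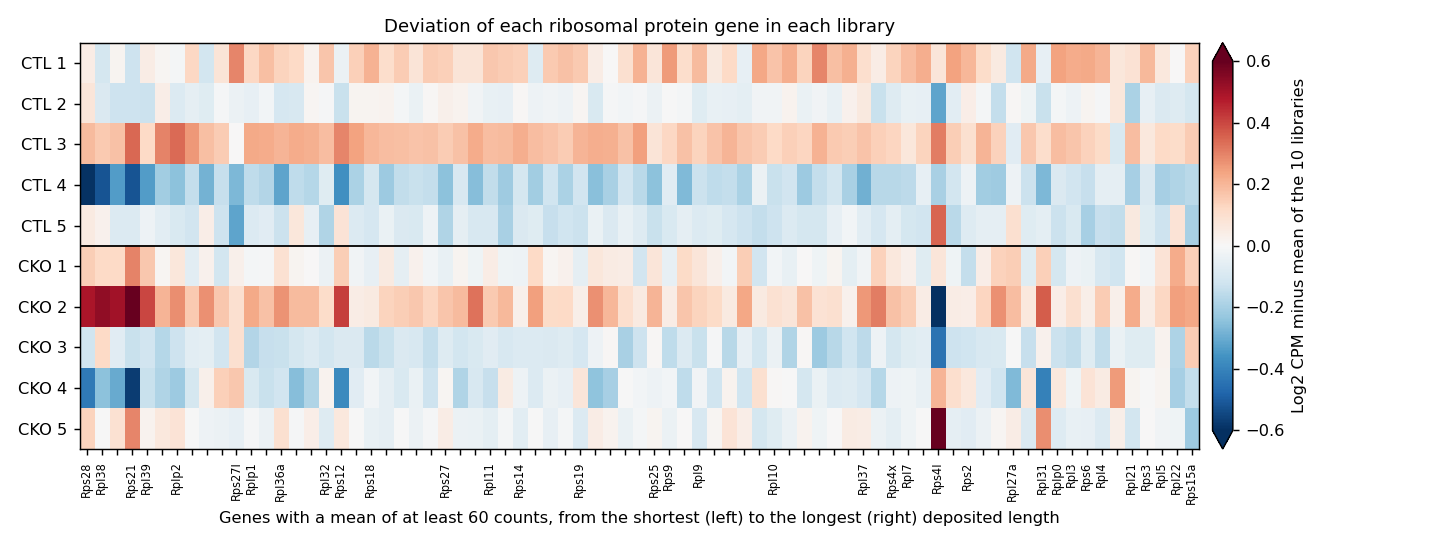
Deviation of log2 CPM from the mean of the 10 libraries (colour, red above and blue below) for 75 ribosomal protein genes with a mean of at least 60 counts, from the shortest to the longest deposited length (x axis), in each library (y axis). CTL 1, CTL 3 and CKO 2 are red and CTL 4 blue for most genes, and the shortest genes at the left show the strongest colours in CTL 4, CKO 2 and CKO 4.

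Ribosomal protein genes have many near-identical copies elsewhere in the genome, and reads can be shared with them. For 81 members the transcript was cut into all windows of 85 bases, the read length, and searched for in the GENCODE transcripts of other genes. At least 50% of the windows were shared in 29 members, and none in 5, among them *Rps3*, *Rpl3l*, *Rpl10l* and *Rpl39l*. The share was 91.9% in *Rpl5*, 69.5% in *Rps18* and 62.1% in *Rps2*, while it was 9.03% in *Rps9*, 8.03% in *Rpl32* and 7.15% in *Rpl4*. *Rps2* shared windows with 44 other genes and *Rpl21* with 55. How such reads were assigned was not given in the sources used here, so the levels of members with shared windows are uncertain.

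The values differed little along this line. The 29 tested members with at least 50% of their windows shared had a median of 0.566 counts per base in *Cited2* CTL and a median log2 fold change of -0.02, and the 50 with fewer shared windows 0.605 counts per base and 0.00. Rows of the table named as pseudogenes of members numbered 34 and held between 0.00474 and 0.0106% of the counts of a library, against 0.859 to 1.07% for the members. Adding them to their parent genes left 0 members called.

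No difference between genotypes was called in the relation of the copies to their parent genes. For 8 pairs the log2 ratio of parent to copy (CPM + 1) was compared between genotypes by two-sided exact permutation of the libraries, which can reach p = 0.00794 at the least. The smallest exact p was 0.294, with an adjusted p of 0.952 over the 8 pairs. A single pair at the least possible p would not pass the adjusted threshold, so the test can call pairs only together. *Rps27l*, known as a target of p53, stood as high per base as its parent *Rps27*, with 0.645 ± 0.0352 and 0.579 ± 0.0523 counts per base in *Cited2* CTL. This was the pair with the smallest p, with log2 ratios of 0.15 ± 0.12 for *Cited2* CTL and 0.06 ± 0.12 for *Cited2* CKO. *Rpl22l1*, at 1.09 ± 0.124 counts per base in *Cited2* CTL, exceeded its parent *Rpl22* at 0.329 ± 0.0582, while per library, at deposited lengths of 477 and 2040 bases, *Rpl22* had the higher CPM.

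For most of the remaining pairs the parent had more CPM than the copy, a ratio that also holds the lengths of both genes. *Rpl36a* exceeded *Rpl36al* by 1.13 ± 0.10 on the log2 scale in *Cited2* CTL and 1.16 ± 0.14 in *Cited2* CKO, and *Rps4x* exceeded *Rps4l* by 2.87 ± 0.24 and 2.97 ± 0.62. *Rpl39* exceeded *Rpl39l* by 4.38 ± 0.51 and 4.04 ± 1.41. *Rpl7* and *Rpl7l1* had about equal CPM with log2 ratios of 0.04 and 0.02, and the copies of *Rpl3* and *Rpl10* were near 0 counts. The *Rpl10l* and *Rpl3l* ratios rest on the pseudocount and say little of their difference between genotypes.

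Other parts of the translation machinery were counted in the same fit from lists written from general knowledge. The 9 cytoplasmic ribosomal proteins outside the symbol pattern, among them *Rpsa*, *Fau*, *Rack1* and *Rps3a1*, had 0 calls and a median log2 fold change of 0.01. In that list *Rps27rt* and *Rack1*, a 40S scaffold protein, had the smallest p, with log2 fold changes of 0.32 (standard error 0.46) and -0.04 (standard error 0.08). The 78 mitochondrial ribosomal proteins had 0 calls, 39 fitted levels above and 39 below, and a median of 0.00, with 7 of 78 at an unadjusted p under 0.05 in edgeR's test, beside 12.9% of all tested genes. *Mrpl35* and *Mrpl1*, both of the large mitochondrial subunit, had the smallest p, with log2 fold changes of 0.43 (standard error 0.10) and 0.28 (standard error 0.10) and adjusted p of 0.102 and 0.274 in edgeR's test.

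The 17 other RNAs known for a TOP element, mostly mRNAs of elongation and initiation factors and including the non-coding *Gas5*, had 0 calls and a median of 0.00. Their summed levels followed the ribosomal protein genes across libraries, with 4660 CPM in CTL 1, 4718 in CTL 3 and 4781 in CKO 2 against 4120 in CTL 4. The smallest p was that of *Eif3e*, a subunit of the initiation factor eIF3, at 289 ± 15.7 CPM for *Cited2* CTL against 320.1 ± 13.5 CPM for *Cited2* CKO, and an adjusted p of 0.336 in edgeR's test. *Nap1l1*, a histone chaperone, followed with a log2 fold change of 0.12 (standard error 0.06).

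In the list of 11 regulators of TOP mRNAs, 0 were called and 6 had an unadjusted p under 0.05 in edgeR's test, 2 with a higher and 4 with a lower fitted level, beside 12.9% of all tested genes. This list also holds transcription factors of the Myc family, which were among the 4 lower. *Mtor*, the kinase that controls translation of TOP mRNAs, averaged 64.6 ± 5.15 CPM over *Cited2* CTL and 51.7 ± 5.15 CPM over *Cited2* CKO libraries, with ranges that did not overlap. Its log2 fold change of -0.32 had an adjusted p of 0.255 by edgeR and a standard error of 0.11. *Rps6kb1*, the kinase of the 40S protein Rps6, averaged 165 ± 13.9 and 193 ± 17.3 CPM, and its log2 fold change of 0.22 had an adjusted p of 0.282 by edgeR and a standard error of 0.08. *Rps6* itself had a log2 fold change of -0.03 with a 95% interval from -0.21 to 0.16.

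The machinery that makes ribosomes was likewise uncalled. The 14 RNA polymerase I genes had 0 calls and a median log2 fold change of -0.02, with *Taf1a* at 0.38 (standard error 0.18) and *Cd3eap* at -0.25 (standard error 0.13) the nearest to a call. The 66 ribosome biogenesis factors had 0 calls, 10 of 66 at an unadjusted p under 0.05 in edgeR's test (7 above and 3 below, beside 12.9% of all tested genes) and a median of 0.03. *Dcaf13*, a factor of small subunit assembly, was at 125 ± 7.25 and 153 ± 6.63 CPM, and *Tcof1*, a nucleolar factor of ribosomal RNA transcription, at 122 ± 5.53 and 100.6 ± 10.2 CPM. The ranges of the genotypes were apart in both genes, and their adjusted p was 0.117 and 0.212 in edgeR's test. DESeq2's Wald test called *Dcaf13* (adjusted p = 0.0127) and *Mrpl35* (adjusted p = 0.0124) and no other gene of these lists.

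Of the marker lists, 1 gene was called, *Cd48* of the multipotent progenitor list, the antigen absent from the sort gate, which averaged 21.6 ± 5.53 CPM over *Cited2* CTL and 49.02 ± 9.15 CPM over *Cited2* CKO, with an adjusted p of 0.0264 by edgeR. The other markers of that list were not called, with log2 fold changes of -0.36 (*Flt3*, adjusted p = 0.194 by edgeR) and -0.04 (*Cd34*). The 12 cycling cell markers summed to 1360 to 1669 CPM in *Cited2* CTL and 1372 to 1858 CPM in *Cited2* CKO libraries. The HSC, erythroid, neutrophil, monocyte, B cell, T cell, megakaryocyte and stromal lists had 0 calls.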

How the data were processed

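The 10 libraries were grouped by the genotype in their labels. Single-ended reads were mapped by the authors with HISAT2 (genome GRCm38, mm10) and summarised with Rsubread, and the deposited table holds whole-number read counts by gene symbol, not normalized, beside a gene length in bases. The annotation used for counting, strand, and the treatment of duplicate and multi-mapping reads are not given in the sources used here. The deposited totals of 3058690 to 4548795 counts, which are not the number of reads sequenced, set the precision, which is low for rarely counted genes.

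The fit of all genes used edgeR 4.0.16 under R 4.3.3 (filterByExpr, TMM, robust quasi-likelihood F test, Benjamini-Hochberg adjustment over all tested genes, adjusted p under 0.05 and fold change above 20%). CPM were scaled to TMM totals, log2 CPM used a prior count of 2, and no test was made on sums or medians over members. Paralog ratios used CPM + 1 and exact permutation tests. Alternatives included DESeq2 1.42.0, limma-voom (limma 3.58.1), other filters and scalings, the replicate block, a loess offset for GC content and length, and each library left out. The offsets for counts per base, the total without all mitochondrially encoded genes, the paired difference of the summed share and the filter on shared windows were added after the data were seen. Members, gene lists and pairs were chosen with earlier results of these data known. Gene positions, types and shared windows were taken from GENCODE M21 and start sequences from RefSeq. The genes described by name were *Cited2*, called members, the 5 members with the smallest p in each direction, the 8 highest and 5 lowest per base, members removed by the filter, both genes of each pair and, from other lists, called genes and the 2 with the smallest p. Some genes under this rule are not reported here and are left out of the plots of single genes. *Rps19*, *Rpl11*, *Rps6*, *Rps12*, *Rps21*, *Rps28*, *Rpl21*, *Rpl27a*, *Rpl37*, *Rps3*, *Cd34* and *Gas5* were named after their values were seen. The fits were tested on simulated data. There edgeR recovered 63 of 100 genes changed by 1 on the log2 scale and 80 of 100 changed by 2, with 8 false calls. DESeq2 recovered 69 and 81, with 32 false calls. Over the 13619 genes run, changes of this size can thus be missed. For the 77 members with a mean of at least 60 counts, the intervals given above had no limit below -0.56 or above 0.70. A log2 fold change of 1 or 2 in either direction lies outside all of these intervals. Members with fewer counts are not covered by these limits.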

Additional observations from a re-analysis of the deposited data

Results flagged for a closer look

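Both genotypes have 5 libraries, and a library was set apart where its distance from the nearest other library of its group exceeded 71% of the group's range (Dixon's criterion of 0.71). Of 80 groups of values checked, 2 were set apart, where chance sets apart about 1 in 20. *Cited2* stood at 120.1 CPM in the library labelled CKO 3, with the next *Cited2* CKO library at 8.30 CPM. *Rpl10l* stood at 2.06 CPM in the library labelled CKO 4, which is 7 counts, with the next *Cited2* CKO library at 0.495 CPM. The summed share of ribosomal protein counts, its parts and the ratios between them set no library apart.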

How the results depend on the processing

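The number of ribosomal protein genes called stayed at 0 under all 25 alternatives. Among the 25, the stricter threshold of an adjusted p under 0.01 on the main fit could only give 0. For the paralog ratios, 0 differed under all 13 alternatives tried for them. The replicate block among these could not reach the threshold, since 5 pairs allow no exact p below 0.0625, and says nothing of stability. The median log2 fold change of the members lay between -0.05 and 0.04 over 22 alternatives, with the same limits when single libraries were left out, and was above 0 without CTL 1, CTL 3 or CKO 3. The difference in summed share lay between -0.0378 and 0.0155 percentage points over 15 alternatives. Genes called in all numbered 32 and moved to 322 with DESeq2, to 8 with the GC and length offset, to 12 with that offset and the replicate block, and to between 8 (without CKO 2) and 42 (without CKO 3) when libraries were left out. With the replicate block alone, 24 genes were called. DESeq2 called 2 genes of the other translation lists. The highest level per base relative to the median, 2.05 in *Cited2* CTL, was 4.24 in CPM and 1.91 in *Cited2* CKO. With the GC and length offset the sign turned for *Rpl5* (-0.0446) and *Rps2* (0.0308), and with the replicate block added for these genes (-0.0435 and 0.0286) and *Rplp0* (0.00224). The causes were not tested.

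The replicate numbers in the labels do not tie libraries to a shared animal or day. Same-numbered libraries correlated by more than 0.1 in 2 of 5 numbers over all genes and, over the members, by 0.126, 0.297, -0.713, 0.504 and -0.340 for numbers 1 to 5, and the replicate block changed no call among members. Uniqueness of members in the whole genome was not computed. Depth limits the rare members, since *Rpl3l* and *Rpl10l* had at most 8 counts in a library.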
